A study of Equus caballus with 25 samples.

Results

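A set of 7 marker genes of leukocytes were followed through the oestrous cycle in the lining of the mare's uterus. They were CD2, IL7R, GZMB and GNLY, used as markers of T and natural killer (NK) cells, CD14 and CD68, used as markers of monocytes and macrophages, and LAPTM5, found in leukocytes in general. They were chosen by name, with earlier results of these data known. Every probe whose RefSeq transcript belongs to 1 of the 7 genes was taken. This gave 8 of the 43603 probes on the array, 2 of them for GZMB and 1 for each other gene. All 8 were among the 35770 probes bright enough to be tested, and all 8 were well above background on each of the 25 arrays.

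The samples were transcervical biopsies of the endometrium from 5 normally cycling Bavarian Warmblood mares. Each mare was sampled on 5 days counted from ovulation, which gave 5 arrays per day. Day 0 was shortly after ovulation, days 3, 8 and 12 were the early, mid and late luteal phase, and day 16 was the start of the next ovulatory phase. No mare received a treatment, and the biopsies of one mare came from different cycles. The labels give no age.

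The endometrium holds T cells and NK cells between and beneath its epithelial cells, and macrophages in its stroma. Cytotoxic lymphocytes kill target cells by releasing granules that contain granzymes, serine proteases that start cell death, and granulysin, a peptide that breaks open membranes. Macrophages take up debris and microbes, digest them in lysosomes and sense bacterial lipopolysaccharide through CD14. A biopsy mixes all cell types, so fewer cells of a type and less RNA per cell cannot be told apart in any value below.

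The level of a probe is its processed signal on the log2 scale, set so that the 75th percentile of each array is 0. An increase of 1 is therefore a doubling relative to the array as a whole. The 75th percentile itself ranged from 698 to 3701 signal units, the dimmest array being that of mare 2 on day 0 and the brightest that of mare 4 on day 16. The share of spots well above background lay between 70.3% and 88.1%, with 0 saturated spots. In an earlier look at these data the day 0 array of mare 2 and the day 3 array of mare 4 stood apart from the rest, and results that change without them are given both ways. Markers of the tissue were present, with the epithelial ESRP1, the stromal DCN and LUM and the endothelial PECAM1 above background. No named probe was found for any of 8 general leukocyte markers, 7 markers of B and plasma cells or 10 of neutrophils. Other genes of T and NK cells and of macrophages were measured in part and are described below. The number of arrays limits the precision of each value.

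In limma's moderated F test over the 5 days, 2 of the 7 genes differed between days, GNLY (adjusted p = 0.000174) and CD14 (adjusted p = 0.00616). Of all probes tested, 35.8% were called in the same test, so the 7 genes were not called more often than the array as a whole. The brighter probe of GZMB did not pass (adjusted p = 0.0823), while its dimmer probe did (adjusted p = 0.00601). CD68 was at an adjusted p of 0.0790, IL7R at 0.216, LAPTM5 at 0.234 and CD2 at 0.986. Arrays of the same mare tended to deviate together, and with the mare as a block GZMB (adjusted p = 0.000390) and CD68 (adjusted p = 0.0190) passed as well, which made 4 of 7, beside 43.4% of all probes in that fit. With the slide as a block 5 of 7 passed, IL7R included, beside 38.1% of all probes. GZMB also passed without the day 12 array of mare 4 (adjusted p = 0.0373) and without all of mare 4 (0.0474), and CD68 without mare 4 (0.0107), without its day 0 array (0.0225) and without the day 16 array of mare 1 (0.0464). With mare and slide together CD68 did not pass (adjusted p = 0.453).

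Between pairs of days, the calls among the 7 genes were few. GNLY was lower on day 3 than on day 0, as were 5.66% of all probes, and lower on day 8 than on day 0, as were 11.4%. GZMB was higher on day 12 than on day 3, as were 8.7% of all probes. GNLY was the one gene called higher on day 12 than on day 8, against 0.626% of all probes. CD14 was higher on day 16 than on day 3, as were 6.89% of all probes, and GNLY and CD14 were higher on day 16 than on day 8, as were 7.91%. In the other 4 pairs limma called 0 of the 7 genes, while 13.8% of all probes were called between days 8 and 3, 17.9% between days 12 and 0, 4.71% between days 16 and 0 and 8.07% between days 16 and 12. At an unadjusted p under 0.05 the counts in these 4 pairs were 1, 2, 1 and 1 of 7. The share of all probes at that threshold was not taken, but it is at least the share called after adjustment. These counts therefore cannot be read as more or fewer than on the array as a whole. The median difference of the 7 genes was −0.64 for day 8 against day 0, against −0.03 for all probes. It was 0.93 for day 12 against day 8, against 0.06, and 0.29 for day 16 against day 8, against −0.05. For day 3 against day 0 it was −0.50, against −0.11, and for day 12 against day 3 it was 0.47, against 0.15. In the remaining pairs it lay between −0.20 and 0.22. The genes were chosen with earlier results of these data known, so these medians only describe them and were not tested. The median of day 8 against day 0 was the value of CD14, which was not called (adjusted p = 0.101). That of day 12 against day 8 was the value of IL7R, the dimmest probe, also not called (adjusted p = 0.290). In each of the 10 pairs the share of all probes called moved by over 1.5 times under some other setting, that of day 3 below day 0 between 0.372% and 17.8% and that of day 16 against day 0 between 0.0252% and 22.1%. Comparisons that involve the same day share its arrays.

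GNLY encodes granulysin, the membrane-breaking peptide of cytotoxic granules. Its transcript was lowest at mid luteal phase, 3.30-fold lower on day 8 than on day 0, and 2.87-fold higher on day 16 than on day 8. On day 0 its log2 level in mares 1 to 5 was −0.14, 1.27, 0.44, −0.46 and 1.08. On day 3 it was −0.61, 0.02, −0.57, −0.70 and −0.78. The mares lay far apart on day 0 and, apart from mare 2, close together on day 3. On day 8 the values were −1.26, −1.30, −1.27, −1.46 and −1.13. All 5 mares were here below every array of the other 4 days, so that day 8 did not overlap with any of them. On day 12 the level was −0.38, 0.46, −0.14, −0.05 and −0.15, and on day 16 it was −0.24, 0.06, 0.26, 0.78 and 0.31. Every mare was higher on days 12 and 16 than on day 8.

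In order of the mean log2 level, GNLY stood at 0.44 ± 0.75 on day 0 (SD, n = 5 throughout), 0.24 ± 0.37 on day 16, −0.05 ± 0.31 on day 12, −0.53 ± 0.32 on day 3 and −1.28 ± 0.12 on day 8. The SD of 0.12 between mares on day 8 compares with 0.29 for the median probe on that day, and the 0.75 on day 0 with 0.44. No neighbours in this order passed by limma: the adjusted p was 0.715 for day 16 against day 0, 0.554 for day 16 against day 12, 0.232 for day 12 against day 3 and 0.0633 for day 8 against day 3. The last of these passed with the mare as a block (−0.76 log2 units, adjusted p = 0.0411), and so did day 16 against day 3 (0.76, adjusted p = 0.0386). With mare and slide together neither passed (adjusted p = 0.125 and 0.114).

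On day 8 GNLY had fallen by 1.72 ± 0.27 log2 units relative to day 0 (moderated standard error, adjusted p = 6.66e-05), in 5 of 5 mares. On day 16 it was 1.52 ± 0.27 above day 8 (adjusted p = 0.000389), also in 5 of 5. Both calls held in each of the 30 fits that left out 1 array or 1 mare. GNLY was also lower on day 3 than on day 0, by −0.97 ± 0.27 in 5 of 5 mares (adjusted p = 0.0205), and higher on day 12 than on day 8, by 1.23 ± 0.27 in 5 of 5 mares (adjusted p = 0.0293). The call of day 3 was lost under normexp, a background correction from a signal model (adjusted p = 0.172), with mare and slide (0.291), with the scan day (0.0519), after adjusting for array brightness (0.0561), in a fit of the 2 days alone (0.124), without the 2 arrays that stood apart (−0.72, adjusted p = 0.102), with the slide as a block (−0.86, adjusted p = 0.0526), without the day 0 array of mare 2 or 5, without the day 3 array of mare 1 or 5, and without mares 2, 3 or 5, the leave-outs giving an adjusted p between 0.0504 and 0.166. The call of day 12 was lost under normexp (adjusted p = 0.330) and with mare and slide (0.105). It was also lost without any one mare, without the day 8 array of mare 2, 3, 4 or 5 and without the day 12 array of mare 1, 2, 3 or 4 (adjusted p between 0.0553 and 0.283), while the difference stayed between 1.10 and 1.32. Within single slides, most pairs of arrays being of 1 mare, GNLY was lower on day 8 than on day 0 on 2 of 2 slides (−2.21 and −1.32) and higher on day 16 than on day 8 on 4 of 4 (1.02 to 1.53).

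**Figure D1:**
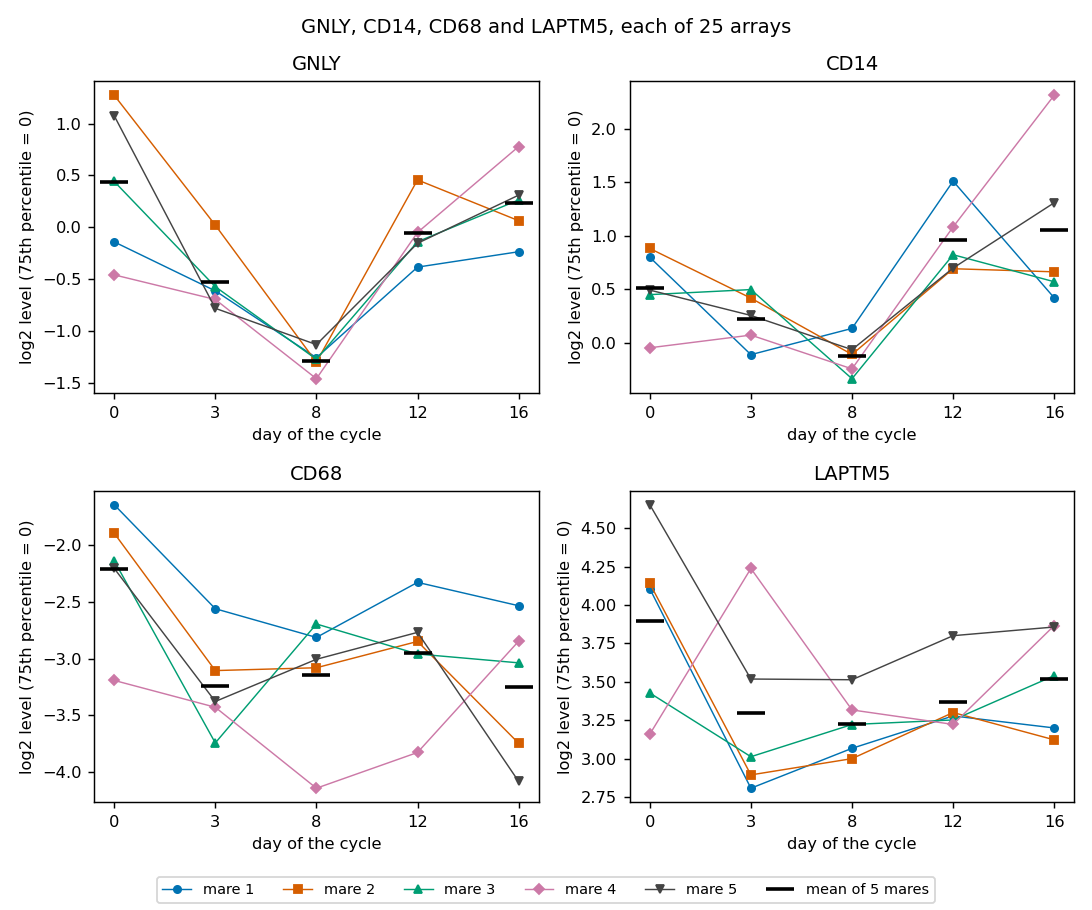
Log2 level (75th percentile of the array = 0) of GNLY, CD14, CD68 and LAPTM5 on days 0, 3, 8, 12 and 16, drawn at equal spacing. Each symbol is 1 array, lines join the arrays of a mare and the black bars are means of 5 mares. GNLY lies between −1.46 and −1.13 on day 8, below all its other values, and the day 16 array of mare 4 stands at 2.32 in CD14.

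CD14 encodes the receptor with which monocytes and macrophages bind bacterial lipopolysaccharide. Its transcript was 2.27-fold higher on day 16 than on day 8, with the lowest mean of the cycle on day 8. On day 0 the log2 level in mares 1 to 5 was 0.80, 0.88, 0.45, −0.05 and 0.49. On day 3 it was −0.11, 0.42, 0.50, 0.07 and 0.26. These days overlapped. Day 8 had 0.13, −0.11, −0.34, −0.24 and −0.06. Day 12 had 1.51, 0.69, 0.82, 1.08 and 0.70, all above every array of days 3 and 8. By limma the difference of day 12 against day 3 was not called (0.74, adjusted p = 0.0664). On day 16 the values were 0.42, 0.66, 0.57, 2.32 and 1.31. The 5 arrays of day 16 also lay above those of day 8, and mare 4 was the highest of all 25.

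The means of CD14 ran from 1.06 ± 0.78 on day 16 over 0.96 ± 0.35 on day 12, 0.52 ± 0.37 on day 0 and 0.23 ± 0.25 on day 3 to −0.12 ± 0.18 on day 8. No neighbours in this order passed, with an adjusted p of 0.877 for day 16 against day 12, 0.294 for day 12 against day 0, 0.523 for day 3 against day 0 and 0.455 for day 8 against day 3. CD14 was 1.18 ± 0.27 log2 units higher on day 16 than on day 8 in 5 of 5 mares (adjusted p = 0.00468), a call that held in each of the 30 fits without 1 array or mare but not with mare and slide together (1.08, adjusted p = 0.0720). Day 12 was higher than day 8 by 1.09 ± 0.27 in 5 of 5 mares and missed the threshold (adjusted p = 0.0516), which it passed under 5 of the other settings (0.0126 to 0.0484, among them quantile normalization at 0.0326) and in 4 of the 30 fits, lowest without the day 16 array of mare 4 (0.0126). Within slides day 16 was above day 8 on 4 of 4, by 0.29 to 1.37. Day 16 against day 3 passed with 0.83 ± 0.27 in 5 of 5 mares (adjusted p = 0.0452), and this call was lost in 22 of the 30 fits. It was also lost under normexp (adjusted p = 0.143), without the filter on dim probes (0.0587), with the mare (0.0580), the slide (0.0613), both (0.0937) or the scan day (0.0530), in a fit of the 2 days alone (0.214) and without the 2 arrays that stood apart (0.79, adjusted p = 0.0778). Without the day 16 array of mare 4 the difference was 0.51 (adjusted p = 0.138), and without all arrays of mare 4 it was 0.48 (adjusted p = 0.191).

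That day 16 array of mare 4 was also the highest of its day in the 3 lipopolysaccharide and macrophage pathway genes called over the 5 days. The array took part in those calls, and tested genes that were not called were not examined on it. LY96, which encodes the partner of the lipopolysaccharide receptor TLR4, reached 2.22 there, against a median of 1.29 on day 16. IL1RN, the antagonist of interleukin 1, reached 6.08, against a median of −1.92, and CCL2, a chemokine that attracts monocytes, −0.41 against −2.44. Of 45 genes listed for this pathway, 12 had a named probe, 9 were tested and 3 differed over the 5 days, again beside 35.8% of all probes. They were CCL2 (adjusted p = 0.000567), LY96 (adjusted p = 0.0207) and IL1RN (adjusted p = 0.0488). All 3 were called higher on day 16 than on day 3, CCL2 by 2.17, LY96 by 1.16 and IL1RN by 3.27 log2 units. CCL2 was called higher on day 16 than on each other day, and the SD of 3.64 of IL1RN on that day was larger than its difference. TLR2, TLR4, CSF3, CCL3, CCR2 and ITGAX did not pass. The median of the 9 genes was 0.28 for day 16 against day 3, against 0.00 for all probes, and 0.14 for day 16 against day 8, against −0.05.

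CD68 is a heavily glycosylated protein of lysosomes and a common macrophage marker. Its mean was highest on day 0, at −2.21 ± 0.59, and lay between −3.25 and −2.95 on the 4 later days. On day 0 its log2 level in mares 1 to 5 was −1.64, −1.89, −2.14, −3.19 and −2.20. It was −2.56, −3.11, −3.74, −3.43 and −3.38 on day 3. Mare 4 was the lowest on day 0, well under the others, and the groups overlapped through this array. On day 8 the values were −2.81, −3.08, −2.70, −4.14 and −3.01, and on day 12 they were −2.33, −2.85, −2.96, −3.83 and −2.77. Mare 4 was again the lowest on both days. Day 16 gave −2.53, −3.75, −3.04, −2.85 and −4.08.

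CD68 did not pass between any 2 days. Day 3 stood −1.03 ± 0.35 from day 0 (adjusted p = 0.0515), day 8 −0.93 ± 0.35 (adjusted p = 0.0558) and day 12 −0.73 ± 0.35 (adjusted p = 0.156), each lower in 5 of 5 mares, and day 16 −1.04 ± 0.35 (adjusted p = 0.0873), lower in 4 of 5. With the mare as a block, 3 of these passed, day 3 at an adjusted p of 0.0158, day 8 at 0.0166 and day 16 at 0.0278. Without the day 0 array of mare 4 they passed as well, at −1.27 (adjusted p = 0.0157), −1.18 (adjusted p = 0.0154) and −1.28 (adjusted p = 0.0313). With mare and slide together none of the 3 passed by limma (adjusted p = 0.300, 0.335 and 0.306). None passed after adjusting for array brightness (0.157, 0.0865 and 0.519) or under normexp (0.387, 0.771 and 0.591). Without the 2 arrays that stood apart they were −0.90, −0.85 and −0.96 (adjusted p = 0.156, 0.125 and 0.205). All 3 passed with the slide, with the scan day or under normexp with marked backgrounds replaced, and some of them under further settings. Among the later days the differences ranged from −0.30 to 0.30. The day order of CD68 thus had day 0 first, where CD14 had its highest means on days 16 and 12. The difference between the genes was not tested.

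LAPTM5 encodes a lysosomal membrane protein that lymphocytes and myeloid cells use to lower surface receptors. Its log2 level had a mean of 3.90 ± 0.60 on day 0, 3.30 ± 0.59 on day 3, 3.23 ± 0.20 on day 8, 3.37 ± 0.24 on day 12 and 3.52 ± 0.35 on day 16. It ranged from 3.16 to 4.65 on day 0 and from 3.00 to 3.51 on day 8, the 2 days with the largest difference (−0.67 ± 0.27, adjusted p = 0.0802, lower in 4 of 5 mares), which overlapped. With the mare as a block that difference passed (adjusted p = 0.0488), and with mare and slide it did not (−0.37, adjusted p = 0.629). Mare 4 ran against the others, with 4.24 on day 3 and 3.16 on day 0. Without mare 4, LAPTM5 differed over the 5 days (adjusted p = 0.0267), the 1 of the 30 fits without an array or mare that passed. The day 3 array of mare 4 was 1 of the 2 that stood apart. Without those 2 arrays the difference of day 8 against day 0 was −0.61 (adjusted p = 0.101).

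GZMB encodes granzyme B, the protease of cytotoxic granules that cleaves caspases in the target cell. Both of its probes were highest in late luteal phase, 2.99-fold higher on day 12 than on day 3 for the brighter probe A_69_P125791 and 2.89-fold for the dimmer probe A_69_P000746. The brighter probe had log2 levels of 2.35, 2.81, 2.40, 0.83 and 3.12 in mares 1 to 5 on day 0 and of 1.80, 2.02, 2.20, 0.78 and 2.22 on day 3. All 5 mares were lower on day 3 than on day 0. It had 2.68, 2.93, 1.86, 1.38 and 3.39 on day 8, then 2.96, 3.82, 3.09, 2.19 and 4.87 on day 12, and 2.60, 2.77, 2.79, 2.46 and 4.22 on day 16. Every mare was higher on day 12 than on days 0, 3 and 8, yet day 12 overlapped with each of these days.

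The dimmer probe had −1.13, −1.02, −1.36, −1.51 and −1.75 on day 0, and −1.60, −1.31, −1.75, −1.74 and −1.67 on day 3. It had −0.96, −0.49, −2.00, −1.56 and −0.66 on day 8, −0.42, 0.22, −0.97, −0.39 and 1.12 on day 12 and −0.25, −0.91, −1.40, 0.26 and −0.53 on day 16. On this probe the 5 arrays of day 12 lay above all 10 arrays of days 0 and 3. The order of the day means was the same on both probes and ran from day 12 over days 16, 8 and 0 to day 3. No neighbours in that order passed on either probe, the smallest adjusted p among them being 0.286.

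On the dimmer probe, GZMB was higher on day 12 than on day 3 by 1.53 ± 0.34 log2 units (adjusted p = 0.00269) and higher on day 12 than on day 0 by 1.27 ± 0.34 (adjusted p = 0.0111), each in 5 of 5 mares. It was higher on day 16 than on day 3 by 1.05 ± 0.34 (adjusted p = 0.0417, 5 of 5 mares). On the brighter probe, day 12 against day 3 passed with 1.58 ± 0.49 (adjusted p = 0.0264, 5 of 5 mares). With the mare as a block the brighter probe passed 3 more pairs, day 12 against day 0 (1.08, adjusted p = 0.00323), day 12 against day 8 (0.94, adjusted p = 0.0477) and day 16 against day 3 (1.17, adjusted p = 0.00258). Of these, day 12 against day 8 did not pass with mare and slide together (0.77, adjusted p = 0.196). Nor did it pass with the slide (0.0639) or with the scan day (0.425). The other 2 passed with mare and slide together (adjusted p = 0.0370 and 0.00423) but not with the scan day (0.0986 and 0.0722). They also missed the threshold after adjusting for array brightness (0.315 and 0.146) and under normexp (0.349 and 0.370). Without the 2 arrays that stood apart they were at 0.121 and 0.266. The difference of day 12 against day 3 on the dimmer probe held in each of the 30 fits without an array or mare. On the brighter probe it was lost in 7 of them, those without the day 3 array of mare 4, the day 12 array of mare 2 or 5, or all of mare 1, 2, 3 or 5 (adjusted p between 0.0563 and 0.106). There it was also lost without the 2 arrays that stood apart (1.32, adjusted p = 0.0821) and under normexp. Within slides it was 1.16 to 1.80 on 3 of 3. On the dimmer probe day 12 against day 0 was lost without mare 5 (0.87, adjusted p = 0.121) and after adjusting for array brightness (1.18, adjusted p = 0.0645). Day 16 against day 3 was lost on that probe in 11 of the 30, the largest move being to 0.81 without mare 4 (adjusted p = 0.197). It was also lost without the 2 arrays that stood apart (1.02, adjusted p = 0.0712), under normexp and without the filter on dim probes. The same held after adjusting for array brightness and in a fit of the 2 days alone. Granzymes are close relatives, and cross-hybridization between them was not tested.

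**Figure D2:**
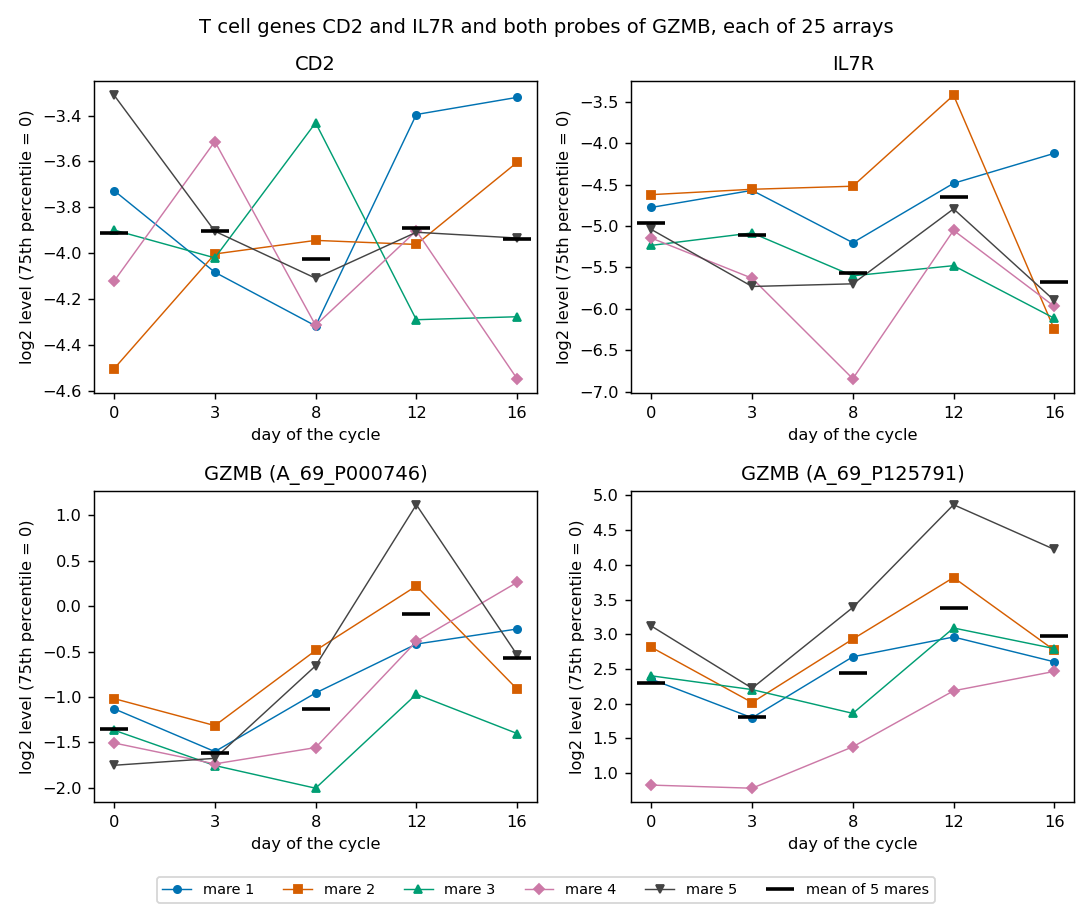
Log2 level (75th percentile of the array = 0) of CD2, IL7R and the 2 probes of GZMB on days 0, 3, 8, 12 and 16, drawn at equal spacing. Each symbol is 1 array, lines join the arrays of a mare and the black bars are means of 5 mares. Both GZMB probes have their highest mean on day 12, while the means of CD2 lie between −4.02 and −3.89.

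The brighter probe of GZMB also differed between mares. Mare 5 was the highest and mare 4 the lowest on each of the 5 days, with means over the days of 3.56 ± 1.02 in mare 5 and 1.53 ± 0.77 in mare 4 (SD, n = 5 days), a 4.10-fold range. Mares 1, 2 and 3 lay between them at 2.48, 2.87 and 2.47. In a model of day and mare, chosen after these values were seen, limma called the mare for this probe (adjusted p = 0.000526) beside 13% of all probes. The dimmer probe of the same transcript did not pass (adjusted p = 0.240, unadjusted p = 0.0939), and on it mare 3 was most often the lowest, on 4 of 5 days. Over the 25 arrays the 2 probes had a Pearson correlation of 0.70, which ran from −0.15 to 0.85 within single days of 5 arrays. Of the other genes, IL7R (adjusted p = 0.0549) and CD68 (adjusted p = 0.0720) came nearest to a difference between mares, and CD14 (adjusted p = 0.967) was farthest from it.

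Mare and slide overlapped in the layout, since 4 of the 5 arrays of mare 4 were on 1 slide and 4 of the 5 of mare 5 on another. The arrays elsewhere were the day 8 array of mare 4 and the day 12 array of mare 5, and these too were the lowest and the highest of their day on the brighter probe. With the slide in the model as well, the mare had an unadjusted p of 0.0420 for this probe and no call (adjusted p = 0.996), while 5 probes of the whole array passed.

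**Figure D3:**
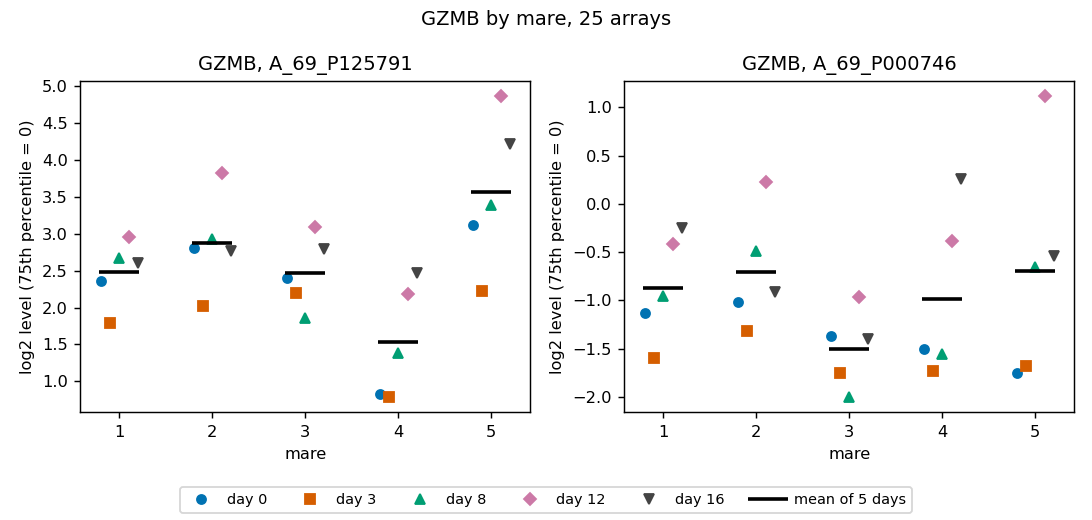
Log2 level (75th percentile of the array = 0) of the 2 GZMB probes by mare, the brighter on the left. Each symbol is 1 array, coloured by day, and the black bars are means of 5 days. On the brighter probe the mean is 3.56 in mare 5 and 1.53 in mare 4, the highest and the lowest of the 5, while on the dimmer probe mare 3 has the lowest mean (−1.50).

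IL7R encodes the alpha chain of the receptor for interleukin 7, a survival signal of T cells. The probe was the dimmest of the 8, with a mean of 50.7 signal units and 13.6 on its lowest array. Its mean log2 level was −4.96 ± 0.26 on day 0, −5.11 ± 0.56 on day 3, −5.57 ± 0.85 on day 8, −4.65 ± 0.78 on day 12 and −5.67 ± 0.88 on day 16. Arrays ranged from −6.84 to −4.52 on day 8, from −5.48 to −3.42 on day 12 and from −6.25 to −4.12 on day 16, and all days overlapped. Day 12 was higher than day 8 in 5 of 5 mares by 0.93 ± 0.42 (adjusted p = 0.290). Day 16 stood −1.02 ± 0.42 from day 12, lower in 4 of 5 mares (adjusted p = 0.159, 0.0498 with the mare as a block and 0.253 with mare and slide). The exception was mare 1, at −4.12 on day 16 against −4.48 on day 12. Without the day 16 array of mare 1, IL7R differed over the 5 days (adjusted p = 0.0356). Day 8 against day 0 was at −0.61 (adjusted p = 0.343). It passed with the slide as a block (−1.04, adjusted p = 0.0246) and with the scan day (−1.07, adjusted p = 0.0465). Day 16 against day 0 was at −0.71 (adjusted p = 0.377) and passed under normexp with marked backgrounds replaced (−0.79, adjusted p = 0.0442). With mare and slide together neither pair passed.

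CD2 encodes an adhesion receptor of T and NK cells that helps them bind to other cells. Its mean log2 level stayed between −4.02 ± 0.37 on day 8 and −3.89 ± 0.32 on day 12. Single arrays ranged from −4.55 to −3.31, and both ends of this range were among the arrays of days 16 and 0. The 10 differences between days lay between −0.12 and 0.13, and their 95% intervals between −0.62 and 0.63 log2 units, which bounds the size of change that these arrays leave possible for the mean. The smallest adjusted p was 0.810.

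**Figure D4:**
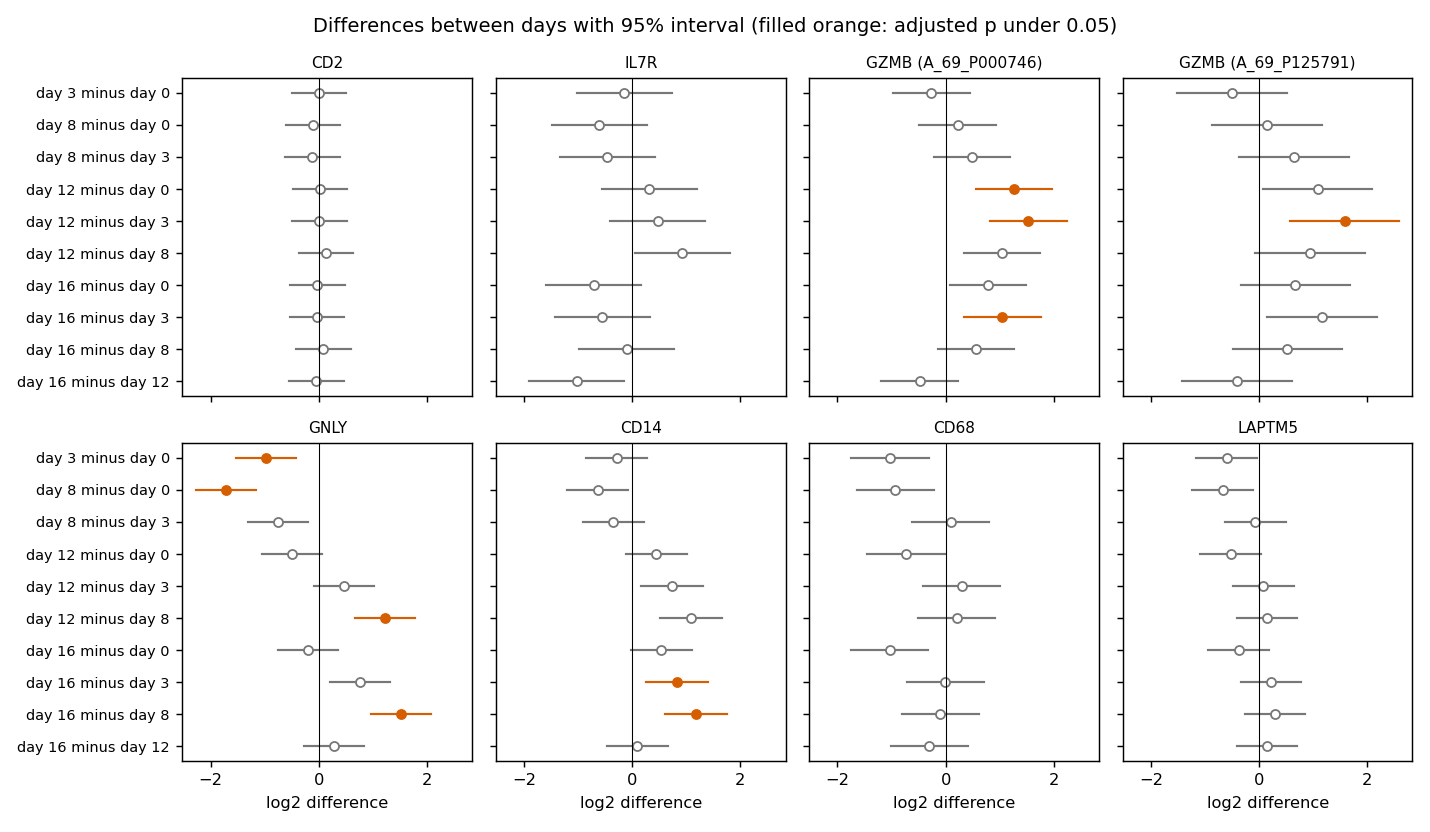
Differences between days on the log2 scale (later minus earlier day) for the 8 probes, with 95% intervals from limma that are not adjusted for the number of tests. Filled orange marks differences with an adjusted p under 0.05. GNLY has 4 such differences, the dimmer GZMB probe 3, CD14 has 2 and the brighter GZMB probe 1.

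Other genes of cytotoxic and T cells could be followed only in part. Of 43 listed genes 5 had a named probe and 3 were tested, of which 1 differed over the 5 days, beside 35.8% of all probes. It was CCL5, a chemokine that T and NK cells secrete (adjusted p = 0.00547). CCL5 had mean log2 levels of −0.68 ± 0.43, −1.21 ± 0.28, −1.71 ± 0.58, −0.74 ± 0.24 and −0.81 ± 0.15 on days 0, 3, 8, 12 and 16. It was lower on day 8 than on day 0 by −1.03 (adjusted p = 0.00283) and higher than on day 8 by 0.97 on day 12 (adjusted p = 0.0448) and by 0.89 on day 16 (adjusted p = 0.0115). The NK receptor gene KLRB1 (adjusted p = 0.877) and IFNG, which encodes interferon gamma (adjusted p = 0.498), did not pass. The medians of the 3 genes were 0.82 for day 16 against day 8 and −0.53 for day 8 against day 0, against −0.05 and −0.03 for all probes. Both medians were the values of IFNG, which was not called in either pair (adjusted p = 0.381 and 0.586). Its probe was dim, with day means between −8.19 and −7.13. KLRB1 differed by 0.12 and −0.42 in these pairs and was not called either.

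Markers of other cells moved over the same days. The 2 named stromal fibroblast genes, of 8 listed, both differed over the days, DCN (adjusted p = 0.000909) and LUM (adjusted p = 0.000472), and both encode proteoglycans of the collagen matrix. DCN differed by −1.43 on day 8 against day 0 (adjusted p = 0.000401) and by 1.04 on day 16 against day 8 (adjusted p = 0.00840), the 2 pairs in which GNLY differed most. LUM differed by −1.30 on day 8 against day 0 (adjusted p = 0.00952) and did not pass on day 16 against day 8 (0.82, adjusted p = 0.122). On day 12 against day 8, where GNLY differed by 1.23, neither stromal gene passed. LUM was at −0.82 (adjusted p = 0.250) and DCN at 0.39 (adjusted p = 0.486). The summed level of the 2 genes, in multiples of the 75th percentile, ranged from 29.8 to 44.7 on day 0, 8.63 to 25.1 on day 3, 11.8 to 16.1 on day 8, 12.6 to 20.0 on day 12 and 18.2 to 36.9 on day 16. PECAM1, an adhesion molecule of endothelium that leukocytes and platelets also carry, was the 1 named gene of 5 for endothelium. It was highest on day 12 (0.87 ± 0.26) and lowest on day 8 (0.13 ± 0.20), with an adjusted p of 0.0308 over the days. TAGLN, 1 of 4 for smooth muscle, was highest on day 16 (adjusted p = 0.000608). ESRP1, 1 of 7 for epithelium, did not pass (adjusted p = 0.621), nor did DYDC1, 1 of 3 for ciliated cells (adjusted p = 0.146). The part of these markers in the changes of GNLY, CD14 and GZMB was not tested.

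The named genes with the most similar course were sought by Pearson correlation over the 25 arrays, which share mares and slides, among 513 genes with a symbol. For GNLY they were FTL (0.79), the light chain of ferritin, CCL5 (0.79) and ZDHHC9 (0.78). For CD14 they were BHLHE40 (0.81) and ARID5B (0.80), both regulators of transcription, and PPARGC1A (0.78), a coactivator of mitochondrial genes. For GZMB on its brighter probe they were UBE2B (0.67), FCER1A (0.66), a chain of the IgE receptor of mast cells, and SMPD1 (0.66). CD68 was most like SLC2A4 (0.77), a glucose transporter, TNFRSF14 (0.74) and CASP1 (0.74), the protease that activates interleukin 1. LAPTM5 was most like PPP6R3 (0.77), TRIM8 (0.76) and SDC2 (0.76), and IL7R most like HTR1B, OR4C11E and CRISP3 (0.75, 0.74 and 0.74). For CD2 the highest value was 0.50, with PRKCE, followed by TLR7 (0.45) and ABCC1 (0.43).

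Among the 7 genes themselves, GNLY and CD14 were the most alike (0.66), and each was rank 20 of 513 for the other. The next pairs were CD68 with IL7R (0.53) and LAPTM5 with GNLY (0.52). GNLY and GZMB, both genes of cytotoxic granules, were at 0.34, and CD14 and CD68, both macrophage markers, at 0.10. CD2 was at 0.25 with IL7R and at −0.01 with GZMB.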

How the data were processed

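Biopsy RNA was labelled with Cy3 and hybridized to one-colour Agilent arrays, per the labels' protocols. The deposited files hold spot intensities. Agilent Feature Extraction 10.7.3.1 had already removed background on each array, per the file headers, and no scaling between arrays is recorded. The deposited value table equalled the processed signal on all 25 arrays.

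Processed signals were divided by the 75th percentile of their array and turned into log2 values, which hides any change in total RNA. Spots marked as outliers were set to missing (none of the 8 probes here), and spots of a probe were averaged. Probes well above background on at least 4 of 5 arrays of some day were tested. One limma model (limma 3.58.1, R 4.3.3) held the day for all 25 arrays; F tests and the 10 pairs of days (later minus earlier) were adjusted by Benjamini-Hochberg over all tested probes, two-sided, at 0.05. The fit was also run on simulated data with independent noise for each array. These held no mare or slide effects, so that run could not show how such effects change the calls.

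Gene symbols came from RefSeq transcripts of the assembly TB-T2T. Symbols were found for 620 genes, so most lists are covered in part. GZMB stands for its brighter probe unless stated. For each gene the 3 named genes with the highest correlation were named, with up to 4 called members per list. The genes and lists were chosen with earlier results of these data known.

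Same-numbered arrays are of the same mare per the labels, and after removing day means they correlated at a median of 0.245 (different mares −0.05), or 0.120 where the slides differed. The mare was therefore tried as a block, as were the 7 slides, 4 scan days, other scalings, background corrections and filters, and leaving out arrays or mares. The mare as a tested term was added after the values were seen.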

Additional observations from a re-analysis of the deposited data

Results flagged for a closer look

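In 5 of the 40 sets formed by a probe and a day, 1 mare stood apart from the other 4 by Dixon's test at its 95% level, while chance marks about 5% of such sets. IL7R on day 16 was highest in mare 1, at −4.12, against −5.90 in the nearest mare. GZMB on its brighter probe was highest in mare 5 on day 16, at 4.22, against 2.79 in the nearest. GNLY on day 3 was highest in mare 2, at 0.02, against −0.57. CD68 on day 8 was lowest in mare 4, at −4.14, against −3.08. LAPTM5 on day 12 was highest in mare 5, at 3.80, against 3.30.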

How the results depend on the processing

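Beside leaving out arrays, 12 other settings were tried, and a second probe for GZMB. The F test of GNLY passed and that of CD2 did not in all of them. CD14 missed the threshold with mare and slide together (adjusted p = 0.0511). GZMB passed with the replicate block of the mare (0.000390), the slide (0.00101), both (0.00416) and on its other probe (0.00601). CD68 passed after quantile normalization (0.0363), after normexp with marked backgrounds replaced (0.0164), with the replicate block (0.0190), the slide (0.0327) and the scan day (0.0247), and IL7R with the slide (0.0465). The count of genes called over the 5 days was then 4 of 7 with the replicate block, beside 43.4% of all probes, and 5 with the slide, beside 38.1%. Over the 30 fits without an array or mare, the adjusted p ranged from 0.747 to 0.999 for CD2, from 0.0356 to 0.427 for IL7R, from 0.0373 to 0.239 for GZMB, from 3.35e-05 to 0.00669 for GNLY, from 0.00208 to 0.0473 for CD14, from 0.0107 to 0.339 for CD68 and from 0.0267 to 0.589 for LAPTM5, and the count from 2 to 5. The count of all probes, 12790, was 3702 under normexp, 7805 with mare and slide, 7503 without mare 2 and 7928 without mare 3. The differences of day 8 against day 0 and day 16 against day 8 in GNLY, and of day 12 against day 3 on the dimmer GZMB probe, passed under each of these settings. Under normexp as planned, which used the local background of the day 8 array of mare 2 (up to 772899), GNLY on day 12 against day 8 was at 0.88 (adjusted p = 0.330). Within slides, 1 followed difference turned its sign, CD68 on day 16 against day 0, at 0.35 on the slide that held most arrays of mare 4. For day 16 against day 8 the median of all probes was −0.41 with that correction, against −0.05 in the fit reported, and 36.1% of the calls were higher, against 52.6%. With marked backgrounds replaced the share of higher calls was 25.2% against 55.3% for day 3 against day 0, 35.8% against 48.0% for day 8, 32.0% against 52.3% for day 12 and 13.6% against 51.2% for day 16, all against day 0. Quantile normalization gave 65.5% for day 3 and 63.8% for day 16 against day 0, and normexp gave 68.1% for day 16 against day 0 and 44.4%, against 57.1%, for day 12 against day 8. At 5 arrays a day the smaller differences are not resolved, and signal level per array was lowest on day 0.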

Other observations

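Cytokines and chemokines that act on T and NK cells were followed as a list of 20 genes, of which 12 had a named probe, 8 were tested and 3 differed over the 5 days by limma, beside 35.8% of all probes. CXCL10, a chemokine induced by interferon that attracts T cells (adjusted p = 3.45e-05), had mean log2 levels of −1.48 ± 0.43, −3.63 ± 0.47, −3.60 ± 0.45, −3.46 ± 0.62 and −1.93 ± 0.81 on days 0, 3, 8, 12 and 16 (SD, n = 5 each). It was 1.67 higher on day 16 than on day 8, and 5 of 5 arrays of day 0 lay above all arrays of days 3, 8 and 12. CXCL9, of the same family (adjusted p = 0.0199), was highest on day 0 at −3.25 ± 0.60, while its means on the later days lay between −4.75 and −4.42. TGFB1, a cytokine that restrains T cells (adjusted p = 0.0325), was highest on day 12 at −1.20 ± 0.31 and lowest on day 0 at −2.26 ± 0.22. IL10, IL12A, IL18, IL23A and TNF did not pass.

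ITGA2B, a platelet integrin and the 1 named gene of 3 for platelets, differed over the days (adjusted p = 0.000218) and was highest on days 3 and 8, at −1.80 ± 0.75 and −1.93 ± 0.11, against −3.11 ± 0.31 on day 0. The mast cell genes TPSB2 (adjusted p = 0.210) and FCER1A (adjusted p = 0.473), 2 of 4 listed, did not pass, nor did ITGAX, 1 of 5 for dendritic cells (adjusted p = 0.898). None of 4 erythrocyte genes had a named probe.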
